A study of Bos taurus with 90 samples.

Results

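The miR-183 cluster (miR-96, miR-182 and miR-183) and miR-1271 were followed through 5 tissues of dairy cows. The members were the rows of the deposited tables with these names, and all 4 were present in every tissue, out of 388 miRNAs listed in at least 1 tissue. They had been selected on their mean CPM in the tissues and their CPM by diet in rumen and jejunum, so those values are given as a description with no test. Small RNA was sequenced from 90 samples of mid-lactation Chinese Holstein cows, 18 each from rumen epithelium, duodenum epithelium, jejunum epithelium, liver and mammary gland. The forage of a cow was alfalfa hay, rice straw or corn stover, with 6 samples for each tissue and diet. By the methods the 5 tissues came from the same 18 cows, so samples of different tissues were not independent, and each test was run within a tissue. Rice straw and corn stover are crop residues, and alfalfa hay is a high-quality legume forage. All groups shared breed and stage of lactation, no group went without one of these forages, and the samples were pieces of tissue that can hold many cell types.

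MicroRNAs are short RNAs that guide Argonaute proteins to messenger RNAs, mostly through the seed, a short stretch near the 5′ end. miR-96, miR-182 and miR-183 are cut from one primary transcript, are abundant in sensory cells of the eye and ear, and are also found in many epithelia. Their seeds are alike but not identical. miR-1271 comes from another locus and has the seed of miR-96, so the pair is predicted to bind the same sites. In the RefSeq gene table (assembly ARS-UCD2.0) MIR182, MIR96 and MIR183 were consecutive genes, with NRF1 on the miR-182 side. MIR1271 lay over ARL10, between COMMD10 and NOP16.

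The deposited values were CPM, the reads of a miRNA scaled to a common total of 1e6 reads mapped to annotated miRNAs. A read covers a whole mature miRNA, so CPM was not divided by length, and levels of different members compare reads, not molecules. Mapped reads ranged from 937556 to 15621501 per sample with a median of 5778304.5, and 3 reads were worth 0.192 to 3.20 CPM. No member was at 0 in any of its 360 values. Intervals below cover counting error only. The liver miRNA miR-122 had 8671 to 12721 CPM in liver, was not listed in rumen, duodenum or jejunum and reached 48.5 CPM in mammary gland. miR-205, a miRNA of stratified and glandular epithelium, had 33692 ± 7808 CPM (SD, n = 18) in rumen and 3457 ± 2027 CPM in mammary gland, against 1.91 ± 1.66 CPM in duodenum and 88.6 ± 358 CPM in liver. The smooth muscle miRNAs (miR-143, miR-145, miR-133a and miR-1) summed to between 118260 and 244050 CPM in the rumen samples. The sum was between 105770 and 297230 CPM in the intestinal samples. miRNAs typical of muscle and stroma were therefore abundant in the samples labelled epithelium. The same miRNAs summed to between 82524 and 177680 CPM in liver and between 70889 and 228770 CPM in mammary gland. Their abundance was thus not particular to the samples labelled epithelium.

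Some libraries stood apart from the rest of their tissue. The median distance of a library from the tissue median, taken on the log2 scale over miRNAs with a mean of at least 10 CPM, was over 2 times that of the middle library in 9 libraries. They were alfalfa hay replicates 1 and 6 of rumen, rice straw replicate 1 of duodenum, corn stover replicates 2 and 6 of jejunum, and rice straw replicates 1, 4 and 5 and alfalfa hay replicate 1 of mammary gland. Of these, rice straw replicates 1 and 5 and alfalfa hay replicate 1 of mammary gland were also the 3 libraries under 2000000 mapped reads. A liver library, alfalfa hay replicate 2, had 1525 CPM of miR-205 and an epithelial sum of 3421 CPM, against 0 to 13.0 CPM and 249 to 744 CPM in the 17 others. Values without these libraries are given beside the results they touch.

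miR-182 was the most abundant member in every tissue. Its level was 3528 ± 1449 CPM in mammary gland, 2681 ± 627 CPM in rumen, 854 ± 220 CPM in duodenum, 827 ± 213 CPM in jejunum and 184 ± 79.9 CPM in liver (mean ± SD, n = 18 each). That placed it 34 among 328 listed miRNAs in mammary gland and 104 among 330 in liver. The mammary gland and rumen ranges overlapped, as did those of duodenum and jejunum, and their SD bands touched. The highest liver sample had 367 CPM and the lowest jejunum sample 448 CPM, so those tissues did not overlap.

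miR-183 had the same order of tissues at a lower level. It reached 526 ± 687 CPM in mammary gland and 461 ± 335 CPM in rumen, then 104 ± 36.8 CPM in duodenum, 88.4 ± 34.9 CPM in jejunum and 12.9 ± 7.02 CPM in liver. The medians of mammary gland and rumen were in the opposite order, at 249 and 343 CPM, and a few libraries of either tissue were far above the others. Without the libraries that stood apart the means were 348 CPM in mammary gland and 366 CPM in rumen, so these neighbours had no firm order. Every rumen sample lay above every duodenum sample, and every jejunum sample above every liver sample.

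miR-96 was the scarcest member of the cluster in each tissue. Its level was 98.5 ± 51.8 CPM in mammary gland, 22.9 ± 11.96 CPM in rumen, 13.7 ± 4.21 CPM in duodenum, 9.35 ± 4.83 CPM in jejunum and 1.05 ± 0.67 CPM in liver. Mammary gland was 4.31-fold above rumen, the next tissue, and 12 of its 18 samples exceeded every rumen sample. In liver only 9 of 18 samples were above 1 CPM. The liver values rested on 1 to 14 reads a sample, so that the lowest, 0.210 CPM in alfalfa hay replicate 6, had a Wilson 95% interval of 0.0371 to 1.19 CPM. The interval of the highest sample, 2.48 CPM in corn stover replicate 2, was 1.25 to 4.89 CPM and lay above it.

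miR-1271 followed another order. Its mean was highest in rumen, at 133 ± 234 CPM, followed by duodenum with 48.2 ± 12.3 CPM, mammary gland with 47.1 ± 53.0 CPM, jejunum with 38.0 ± 26.3 CPM and liver with 4.12 ± 1.39 CPM. The rumen mean was carried by 4 libraries, and by the median the order was duodenum (46.1 CPM), jejunum (42.3), mammary gland (22.8), rumen (21.4) and liver (3.82). Duodenum, mammary gland and jejunum did not differ beyond their spread. Liver was lowest by either measure, with 16 of 18 jejunum samples above all liver samples. The mammary gland over liver ratio of the means was 93.5 for miR-96 and 11.4 for miR-1271, and miR-1271 lacked the mammary gland excess of its seed partner.

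**Figure D1:**
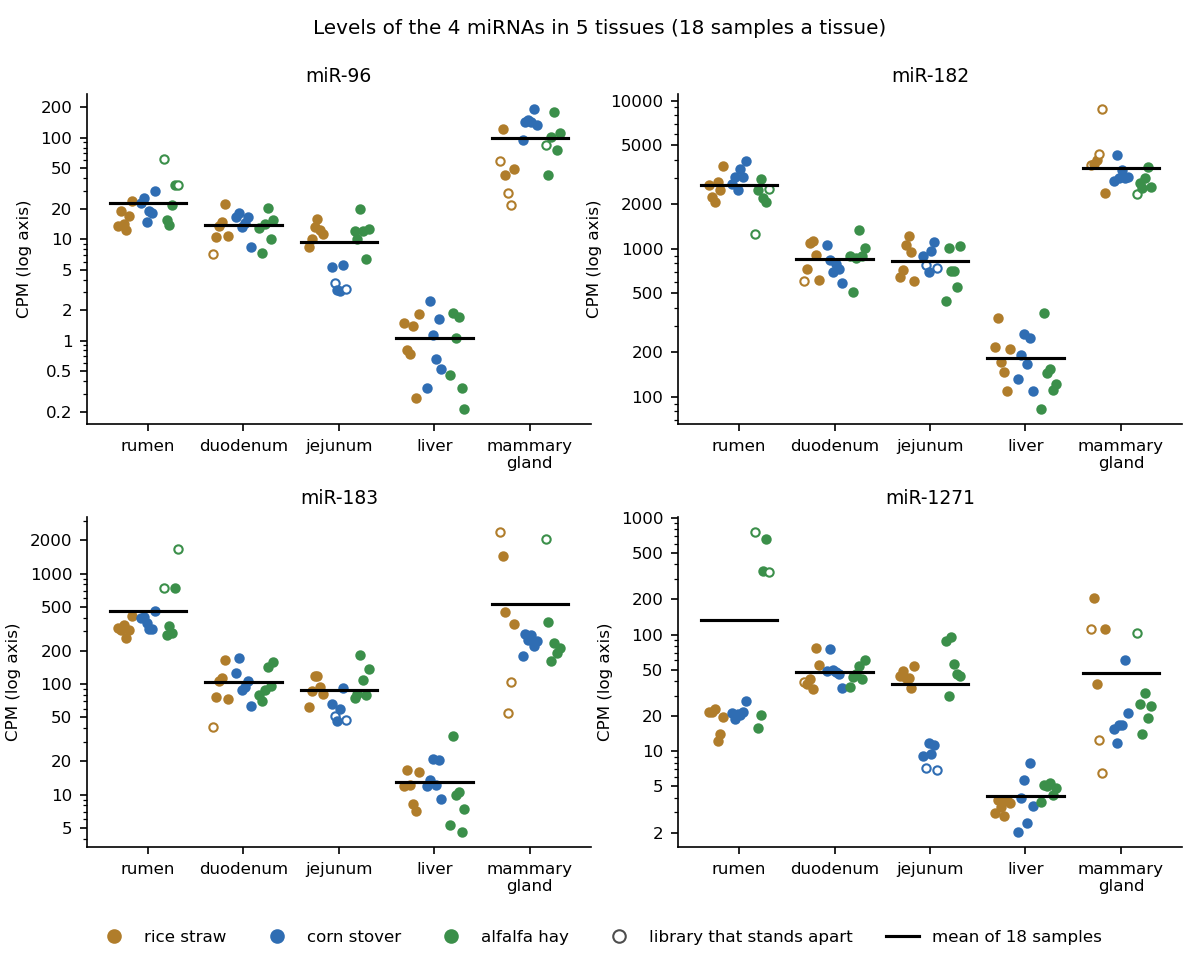
CPM of each miRNA on a log axis in 5 tissues, with 1 point per sample coloured by diet, open points for libraries that stood apart and a bar at the mean of 18 samples. By the mean the 3 cluster members are highest in mammary gland, where miR-183 has no firm order against rumen, and lowest in liver, with mean miR-182 at 3528 and 184 CPM, whereas miR-1271 has 4 rumen libraries between 346 and 759 CPM above a group of 14 between 12.4 and 26.9 CPM.

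The patterns were compared over the 15 tissue and diet means of log2(CPM + 1), among 237 other miRNAs that were listed in all 5 tissues with an overall mean of at least 10 CPM. The 3 diet means of a tissue share its cell types, so Pearson's r is given as a description. miR-182 and miR-183 were nearest to each other (r = 0.97). miR-96 was nearest to miR-141 (0.95) and miR-200c (0.94), miRNAs of the miR-200 family that keep cells epithelial by repressing ZEB factors, then to miR-500 (0.93), miR-1468 (0.92) and miR-182 (0.91). The miR-200 family also stood among the 5 nearest of miR-182 (miR-200c 0.95, miR-141 0.94, miR-200a 0.93, beside miR-151-3p 0.94) and of miR-183 (miR-200a 0.94, miR-200c 0.94, miR-141 0.93, beside miR-151-3p 0.96). miR-1271 was nearest to miR-99b (0.92), with miR-148b (0.84), miR-2336 (0.79), miR-146b (0.78) and miR-200a (0.78) after it. Its r with miR-96 was 0.65, which ranked 28 of the 237 from the side of miR-1271 and 37 from the side of miR-96, where the median over all was 0.17 and 0.10.

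The cluster members kept their order but not their proportions. Within each sample the ratio of CPM values was taken, and miR-182 exceeded miR-183, and miR-183 exceeded miR-96, in all 90 samples. The median of miR-182 over miR-183 was lowest in rumen (7.85) and duodenum (8.85), then 10.1 in jejunum, 12.3 in mammary gland and 14.4 in liver. The median of miR-183 over miR-96 was 17.9 in rumen and 1.97 in mammary gland, with 7.36, 9.15 and 15.1 in duodenum, jejunum and liver. In mammary gland miR-96 came close to miR-183 by this median, although the ratio there ran from 1.16 to 40.8. By diet its mammary gland medians were 8.89 with rice straw, 1.84 with corn stover and 2.24 with alfalfa hay. miR-1271 exceeded miR-96 in every duodenum, jejunum and liver sample, with medians of 3.53, 3.36 and 4.73. It exceeded miR-96 in 12 of 18 rumen samples (median 1.16) and in 4 of 18 mammary gland samples (median 0.280). In rumen those were 6 of 6 samples with alfalfa hay and 3 of 6 with each of the other diets. In mammary gland they were 3, 0 and 1 of 6 samples with rice straw, corn stover and alfalfa hay. Which miRNA of the shared seed had more reads therefore varied between tissues, and in mammary gland also between diets. In rumen the medians with rice straw and corn stover were near 1, at 1.07 and 0.998. There alfalfa hay replicates 2 and 3 had 1.03 and 1.46, and the other alfalfa hay samples had 10.1 to 19.1.

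In rumen, miR-1271 divided the alfalfa hay samples. Its lowest, median and highest values were 12.4, 20.7 and 23.3 CPM with rice straw and 19.1, 21.0 and 26.9 CPM with corn stover. With alfalfa hay, replicates 1, 4, 5 and 6 had 759, 351, 653 and 346 CPM, while replicates 2 and 3 had 15.8 and 20.3 CPM, inside the range of the other diets. The reads behind the 4 high values numbered 1395 to 4834, and the Wilson 95% interval of the highest was 733 to 786 CPM. The alfalfa hay mean was 358 ± 310 CPM (n = 6), against 18.8 ± 4.48 CPM with rice straw and 21.7 ± 2.74 CPM with corn stover. The diets therefore overlapped. None of the 340 listed rumen miRNAs (0.0%) had all alfalfa hay samples above all 12 others.

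The same 4 libraries had the 4 largest distances from the rumen median over all miRNAs. The distances were 0.56, 0.33, 0.38 and 0.55 on the log2 scale for replicates 1, 4, 5 and 6, against 0.19 and 0.17 for replicates 2 and 3, with a median of 0.22 over rumen. Replicates 1 and 6 were those counted as standing apart, and without them the alfalfa hay mean of miR-1271 was 260 CPM. The nearest miRNAs to miR-1271 across the rumen samples, after removal of the diet means, were miR-100 and miR-99b, relatives with a shared seed in the miR-99 family. In the same 4 libraries miR-100 had 9339, 4485, 6522 and 6500 CPM, and in replicates 2 and 3 it had 708 and 937 CPM. miR-99b had 14009, 7216, 9291 and 13008 CPM there, and 1870 and 1610 CPM in replicates 2 and 3. The other 2 diets had 503 to 972 CPM of miR-100 and 1167 to 2401 CPM of miR-99b. The part of the library distance in the miR-1271 values was not tested.

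**Figure D2:**
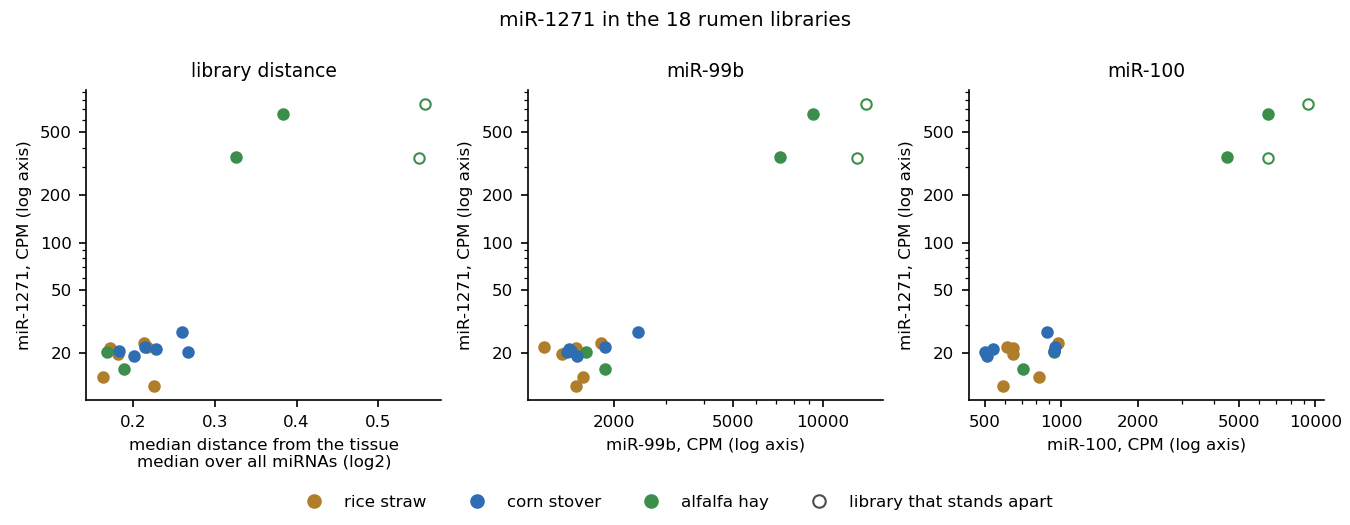
miR-1271 CPM (log axis) in the 18 rumen libraries against the median log2 distance of the library from the tissue median, and against miR-99b and miR-100 CPM (log axes), with points coloured by diet and open for libraries that stood apart. The 4 alfalfa hay libraries between 346 and 759 CPM of miR-1271 lie at distances of 0.33 to 0.56, at 7216 to 14009 CPM of miR-99b and at 4485 to 9339 CPM of miR-100.

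The cluster members followed only part of that split. miR-183 had 745, 288, 735 and 1683 CPM in alfalfa hay replicates 1, 4, 5 and 6, and 280 and 340 CPM in replicates 2 and 3. It ran from 261 through a median of 315 to 413 CPM with rice straw and from 318 through 379 to 464 CPM with corn stover, so replicates 1, 5 and 6 were above both diets and replicate 4 was not. miR-96 had 62.3, 21.7, 34.2 and 34.3 CPM in replicates 1, 4, 5 and 6, and 15.3 and 13.9 CPM in the other 2. The highest miR-96 values with rice straw and corn stover were 23.6 and 29.9 CPM, so the same 3 alfalfa hay libraries exceeded them. miR-182 did not share this. It had 1264, 2211, 2075 and 2550 CPM in replicates 1, 4, 5 and 6, and 2512 and 2947 CPM in replicates 2 and 3, against 2084 to 3614 CPM with rice straw and 2509 to 3923 CPM with corn stover. The ratio of miR-1271 to miR-96 ran from 1.03 to 19.1 with alfalfa hay, from 0.839 to 1.64 with rice straw and from 0.745 to 1.40 with corn stover. The 6 listed epithelial miRNAs of a list of 7 (miR-203 was not listed) summed to 41100 to 87983 CPM with alfalfa hay and 40163 to 65916 CPM with the other diets. The 5 immune miRNAs summed to 2931 to 9241 and 5744 to 9560 CPM. Both lists overlapped between the diets, and their part in the split was not tested.

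In jejunum the separated diet was corn stover, with which miR-96 and miR-1271 were both at their lowest. miR-96 had 3.10, 3.43 and 5.53 CPM (lowest, median and highest) with corn stover, 8.36, 11.7 and 16.0 CPM with rice straw and 6.44, 12.1 and 19.8 CPM with alfalfa hay. miR-1271 had 6.98, 9.24 and 11.9 CPM with corn stover, 35.2, 43.3 and 54.2 CPM with rice straw and 29.8, 51.0 and 95.04 CPM with alfalfa hay. All 6 corn stover samples of either miRNA lay below all 12 others, as they did for 13 of the 337 listed miRNAs (3.86%). These values were among those that led to the choice of the members, so nothing is read from the count. The corn stover reads of miR-96 numbered 19 to 52 a sample, and the Wilson 95% interval of the highest, 5.53 CPM, was 4.05 to 7.56 CPM.

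The rice straw mean was 2.98-fold above corn stover for miR-96 (11.9 ± 2.64 against 3.99 ± 1.12 CPM) and 4.78-fold above it for miR-1271 (44.5 ± 6.54 against 9.32 ± 2.04 CPM). Alfalfa hay was 3.06-fold above corn stover for miR-96 and 6.44-fold above it for miR-1271, whereas rice straw and alfalfa hay overlapped for both. Among all 337 miRNAs, 13.4% had no overlap between rice straw and corn stover and 8.61% had none between corn stover and alfalfa hay. Without corn stover replicates 2 and 6, which stood apart, the corn stover means were 4.26 CPM for miR-96 and 10.4 CPM for miR-1271. The distances of these 2 libraries were 0.45 and 0.40 on the log2 scale, against a median of 0.20 over jejunum. Corn stover replicates 1 and 4 ranked 4 and 5 in jejunum, at 0.27 and 0.26, and replicates 3 and 5 had 0.23 and 0.19. The part of the library distance in these values was not tested. The other pair of the cluster did not separate. miR-183 had 46.9, 55.5 and 92.4 CPM with corn stover, 62.5, 90.8 and 118 CPM with rice straw and 75.6, 95.8 and 184 CPM with alfalfa hay, with overlap between all diets. miR-182 had 693, 841 and 1116 CPM, 611, 833 and 1216 CPM, and 448, 711 and 1044 CPM with the same diets, and its means of 868, 866 and 747 CPM were close to each other.

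The proportions within the cluster differed accordingly. miR-182 over miR-96 was 170 to 314 with corn stover, 54.3 to 79.1 with rice straw and 35.8 to 101 with alfalfa hay. miR-183 over miR-96 was 12.4 to 19.1 with corn stover and 6.26 to 12.3 with the other 2 diets. miR-1271 over miR-96 was 1.71 to 3.79, 2.64 to 5.26 and 2.97 to 7.35 with corn stover, rice straw and alfalfa hay, and overlapped. miR-99b and miR-100, the nearest to miR-1271 in rumen, were also lower with corn stover in jejunum. miR-99b had 444 to 792 CPM there against 1451 to 3520 CPM with the other diets, and miR-100 had 202 to 396 CPM against 568 to 1525 CPM.

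Other cell type markers were read in the same jejunum samples. The endothelial miRNAs (miR-126-3p and miR-126-5p, both listed) summed to 8000 to 17708 CPM with corn stover and 18498 to 29441 CPM with the other diets, with no overlap. The 5 listed epithelial miRNAs of 7 (miR-205 and miR-203 were not listed) summed to 4715 to 10702 CPM with corn stover and 6343 to 9966 CPM with the other diets. The 4 smooth muscle miRNAs summed to 184730 to 297230 CPM and 147340 to 247250 CPM, and the 5 immune miRNAs to 18567 to 29324 CPM and 20154 to 31481 CPM. The 3 red blood cell miRNAs summed to 280 to 2030 CPM and 345 to 1005 CPM. Only the endothelial list separated among these, and its part in the miR-96 and miR-1271 values was not tested. Taken singly, 13 of the 337 listed miRNAs (3.86%) also had all corn stover samples below all others. The endothelial list holds only miR-126-3p and miR-126-5p, so nothing is read from its separation. In samples of whole tissue, fewer cells of a type and less of a miRNA per cell cannot be told apart.

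**Figure D3:**
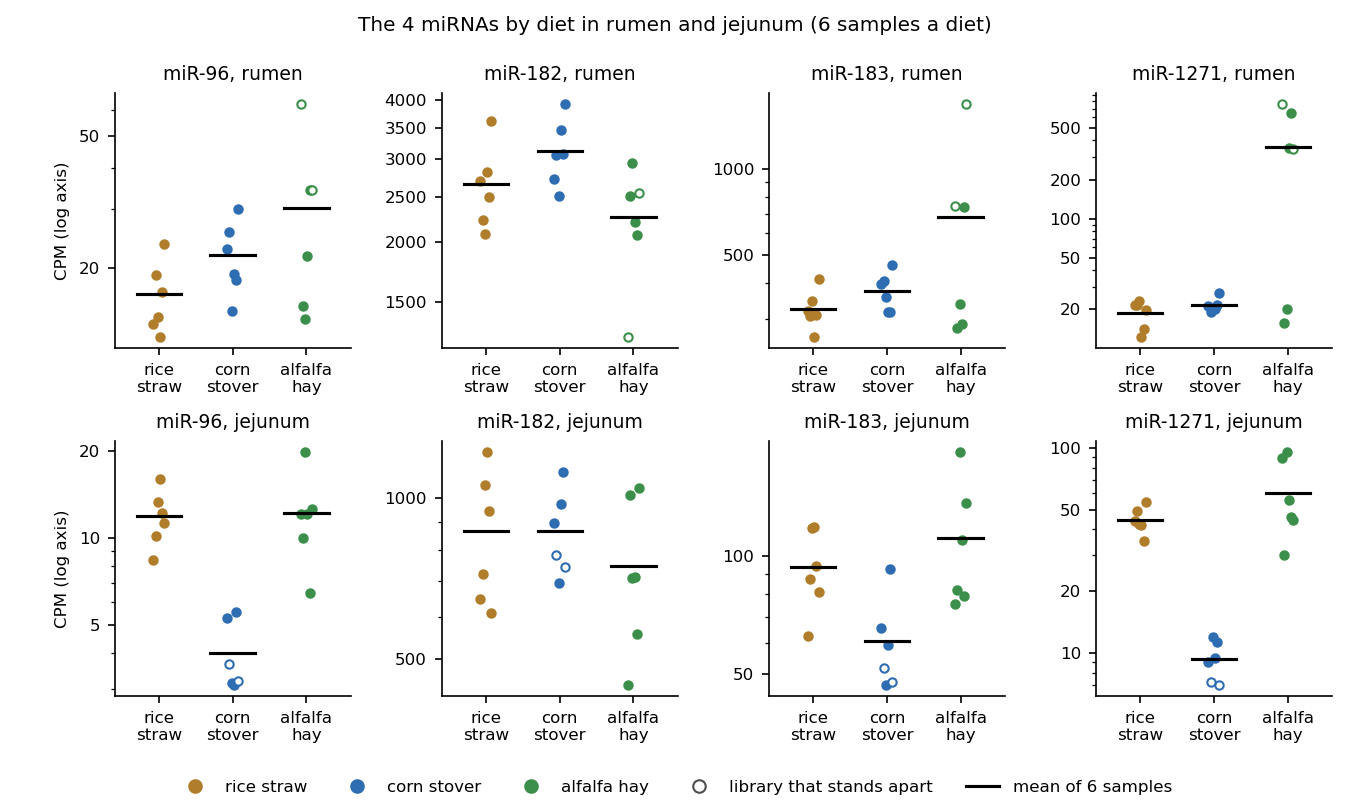
CPM of the 4 miRNAs (log axes) in rumen and jejunum by diet, with 6 points a diet, open points for libraries that stood apart and bars at the means. In rumen miR-1271 has 4 of 6 alfalfa hay samples above 340 CPM and all others below 27 CPM, and in jejunum the corn stover samples of miR-96 (3.10 to 5.53 CPM) and miR-1271 (6.98 to 11.9 CPM) lie below all others.

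Whether diet also moved the members in duodenum, liver and mammary gland had not been used to choose them, and it was tested with limma's moderated F test over the 18 samples of each tissue on log2(CPM + 1). All 4 members passed the filter on low values in duodenum and mammary gland, and 3 passed it in liver, where miR-96 was too low. No member passed the threshold of 0.05 after Benjamini-Hochberg adjustment in any of these tissues. That was also the case for 336 miRNAs in duodenum and 326 in liver (0.0% called in either), while 12 of 323 were called in mammary gland (3.72%). At an unadjusted p under 0.05 the call included 36, 17 and 101 miRNAs (10.7%, 5.21% and 31.3%), and among the members only miR-96 in mammary gland.

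In duodenum, where corn stover was not separated, miR-96 had 8.38, 15.4 and 17.9 CPM (lowest, median and highest) with corn stover, 7.10, 12.2 and 22.1 CPM with rice straw and 7.33, 13.5 and 20.5 CPM with alfalfa hay. miR-1271 had 34.9, 48.0 and 75.1 CPM, 34.1, 40.4 and 76.2 CPM, and 35.9, 44.9 and 60.7 CPM with these diets. Neither showed the corn stover values seen in the neighbouring jejunum, and the difference between the tissues was not tested. On the log2 scale corn stover minus rice straw was 0.17 for miR-96 (95% interval -0.35 to 0.69, adjusted p = 0.940 by limma) and 0.11 for miR-1271 (-0.30 to 0.52, adjusted p = 0.967). Alfalfa hay minus corn stover was -0.08 for miR-1271 (-0.49 to 0.33). Without rice straw replicate 1, which stood apart, corn stover minus rice straw was 0.024 for miR-96, 0.022 for miR-183 (0.24 with it) and 0.068 for miR-1271. The 95% intervals of all pairwise differences of the 4 members in duodenum lay between -0.65 and 0.83.

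In liver the largest difference was -0.54 for miR-183, alfalfa hay minus corn stover (95% interval -1.28 to 0.21, adjusted p = 0.896 by limma). miR-183 had 9.10, 13.0 and 21.0 CPM with corn stover and 4.60, 8.65 and 34.0 CPM with alfalfa hay. miR-1271 had 2.77, 3.48 and 3.82 CPM with rice straw and 3.70, 4.96 and 5.35 CPM with alfalfa hay, a difference of 0.38 (-0.08 to 0.85, adjusted p = 0.896). miR-182 had 110, 192 and 342 CPM with rice straw and 82.6, 134 and 367 CPM with alfalfa hay, a difference of -0.37 (-1.03 to 0.29, adjusted p = 0.908). Each of these ranges overlapped. Without alfalfa hay replicate 2, the library with the epithelial miRNAs, the differences were -0.89 for miR-183 and -0.64 for miR-182, still not past the threshold (adjusted p = 0.463 and 0.688).

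In mammary gland miR-96 was lowest with rice straw. It had 21.6, 45.7 and 122 CPM with rice straw, 95.4, 143 and 191 CPM with corn stover and 42.7, 93.6 and 179 CPM with alfalfa hay. Corn stover minus rice straw was 1.59 ± 0.40 (SE) on the log2 scale, with a 95% interval of 0.76 to 2.42, and alfalfa hay minus rice straw was 0.96 (0.13 to 1.79). The F test gave an adjusted p = 0.0550 by limma, at rank 13 of the 323 miRNAs and just outside the 12 called. Rice straw replicate 2, at 122 CPM, was the only rice straw sample inside the corn stover range. The direction was opposite to that in jejunum, where corn stover was lowest. The median difference of all miRNAs between these diets was 0.63, and with upper-quartile scaling, which moved that median by -0.77, the difference of miR-96 was 0.68 (adjusted p = 0.397). With a pseudocount of 5 CPM it passed (adjusted p = 0.0461). Over all alternatives other than leaving out single libraries the adjusted p ran from 2.42e-05, in the fit of all 90 samples that ignores shared cows, to 0.397. Leaving out rice straw replicate 2, 3 or 6 or alfalfa hay replicate 1 brought it under the threshold, with adjusted p = 0.0362, 0.0367, 0.0431 and 0.0153.

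miR-1271 in mammary gland had the opposite sign. It had 6.55, 75.1 and 205 CPM with rice straw, 11.8, 16.8 and 61.1 CPM with corn stover and 14.1, 25.0 and 102 CPM with alfalfa hay. Corn stover minus rice straw was -1.14 (95% interval -2.51 to 0.23, adjusted p = 0.433 by limma). With upper-quartile and TMM scaling it was -2.01 and -1.85 (adjusted p = 0.211 and 0.250), and it was -0.71 without rice straw replicate 2. The rice straw samples were the most divided, since replicates 4 and 5, both libraries that stood apart, had 12.6 and 6.55 CPM and the other 4 had 37.7 to 205 CPM. miR-183 had 54.9, 401 and 2391 CPM with rice straw, 179, 249 and 282 CPM with corn stover and 161, 225 and 2051 CPM with alfalfa hay, a corn stover minus rice straw difference of -0.67 (-2.15 to 0.81, adjusted p = 0.746). The same 2 rice straw libraries were lowest there, with 54.9 and 105 CPM. With upper-quartile and TMM scaling that difference was -1.59 and -1.41 (adjusted p = 0.435 and 0.497). It was -1.23 and -1.04 without rice straw replicates 4 and 5, and -0.14 and -0.29 without replicates 1 and 2.

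Without the 4 mammary gland libraries that stood apart, the calls on miR-1271 and miR-183 changed. The corn stover minus rice straw difference became -2.19 for miR-1271 (adjusted p = 0.0153 by limma) and -1.34 for miR-183 (adjusted p = 0.0234), both past the threshold. It was 1.13 for miR-96 (adjusted p = 0.117). This left 3 rice straw, 6 corn stover and 5 alfalfa hay samples, without rice straw replicates 4 and 5, the lowest for both miRNAs. The alternative was chosen after the data were seen. Of the 323 miRNAs tested, 61 were then called, against 12 with all samples, so the 2 calls are not read as particular to the members. miR-182 had 2393, 3877 and 8777 CPM with rice straw, 2877, 3027 and 4291 CPM with corn stover and 2341, 2694 and 3552 CPM with alfalfa hay. Its largest difference was -0.58, alfalfa hay minus rice straw (95% interval -1.16 to 0.00, adjusted p = 0.298), and none of its alternatives passed the threshold. With TMM scaling it was -0.87 (adjusted p = 0.103).

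**Figure D4:**
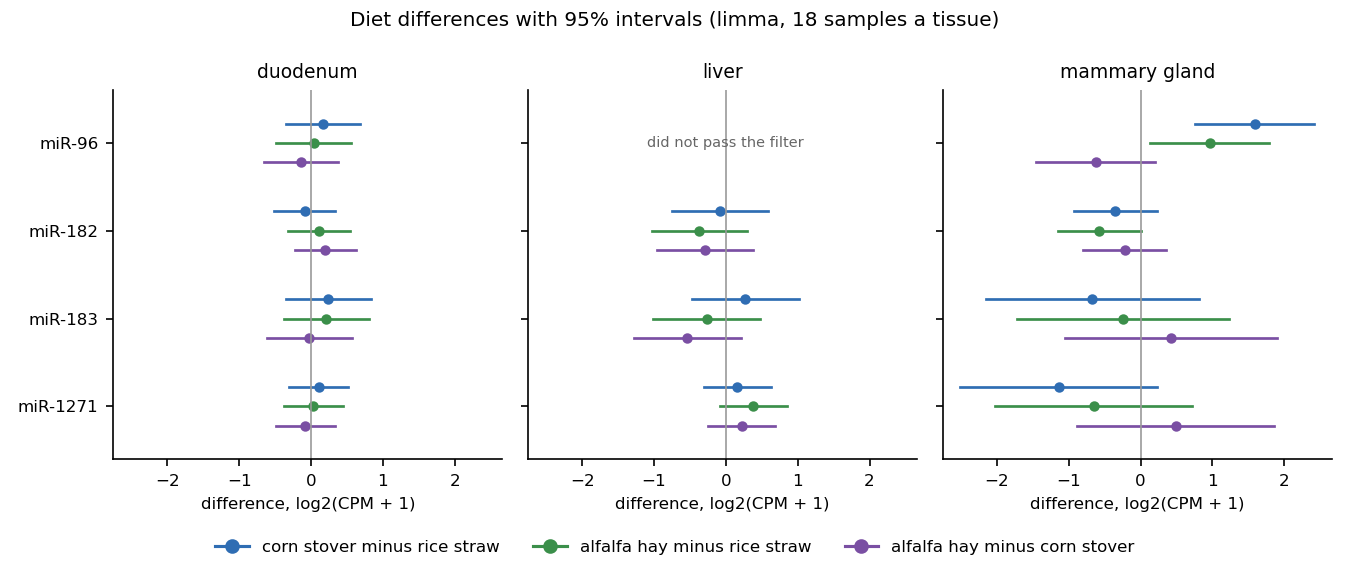
Pairwise diet differences of the members on the log2(CPM + 1) scale in duodenum, liver and mammary gland, with points at the estimate and lines at the 95% interval from limma. Intervals in duodenum stay between -0.65 and 0.83, those in mammary gland reach from -2.51 to 2.42, and miR-96 in mammary gland has corn stover minus rice straw at 1.59.

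Of the marker lists in mammary gland, the smooth muscle list separated rice straw from corn stover. The 4 smooth muscle miRNAs summed to 130050 to 228770 CPM with rice straw and 70889 to 127530 CPM with corn stover, with no overlap, and to 97066 to 210840 CPM with alfalfa hay. The median difference of all miRNAs, corn stover minus rice straw, was 0.63 on the log2 scale here. How many of all miRNAs had no overlap between these diets was not counted, so nothing is read from the separation of this list. The 6 listed epithelial miRNAs summed to 14325 to 51439 CPM with rice straw, 44632 to 60703 CPM with corn stover and 26470 to 69904 CPM with alfalfa hay. The 5 immune miRNAs ranged from 573 to 8666 CPM, 3590 to 9370 CPM and 1936 to 6378 CPM, and the 2 endothelial miRNAs from 10201 to 43585 CPM, 29614 to 44086 CPM and 30629 to 56065 CPM. The 3 red blood cell miRNAs summed to 1202 to 3986 CPM, 1070 to 2938 CPM and 1672 to 4241 CPM, and these ranges overlapped. Their part in the member values was not tested. Of the 6 listed epithelial miRNAs, 1 passed the diet test in mammary gland (miR-429, adjusted p = 0.0434 by limma), and none of 6 passed it in duodenum or liver. Of the 3 red blood cell miRNAs 1 passed it in mammary gland (miR-144, adjusted p = 0.0434 by limma), and none of the smooth muscle, immune or endothelial miRNAs did. Of the sensory and neuroendocrine miRNAs (miR-7, miR-375, miR-335 and miR-153, which are typical of such cells), none passed it in any of these 3 tissues. miR-375 had 6785 ± 1810 CPM in duodenum and 4236 ± 1123 CPM in jejunum but 30.2 ± 28.8 CPM in rumen, unlike the cluster, whose members were higher in rumen than in the intestine.

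Finally, the members were compared with each other across the 18 cows of each tissue, with diet means removed. Pearson's r and Spearman's rho of log2(CPM + 1) were tested with 100000 permutations within diets and adjusted over the 30 relations, and 15 relations passed the threshold. Without alfalfa hay replicate 2 of liver 14 passed, and miR-96 with miR-182 in liver was lost (r = 0.56, adjusted permutation p = 0.0568). Where a member had a gap of more than 2-fold between neighbouring samples, as in 11 relations, r was taken within the larger group of samples. Among pairs of the cluster 9 of 15 passed, and among pairs with miR-1271 6 of 15 passed. The members of a pair were read from the same libraries and scaled by the same totals. How many of all miRNA pairs would pass the same test was not counted, so these counts are not read as particular to the members.

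miR-96 and miR-183 rose and fell together in 4 of 5 tissues. In duodenum r was 0.89 (rho 0.91), with adjusted permutation p = 0.00015 for each, and the unadjusted p of 1e-05 was the smallest the permutations can give. In jejunum r was 0.84 (rho 0.85, adjusted permutation p = 0.0002 for each). In rumen, over the 17 samples without alfalfa hay replicate 6, r was 0.84 (adjusted permutation p = 0.0070) and rho 0.83 (0.0048). With that library it was 0.69, not past the threshold (adjusted permutation p = 0.0691), and without both libraries that stood apart it was 0.76 (0.0164). In liver r was 0.64 (adjusted permutation p = 0.0196) and rho 0.67 (0.0199), on the few reads of miR-96 there. Without the 2 samples farthest from the median of miR-96 these r values were 0.86, 0.81, 0.78 and 0.69. In mammary gland r was 0.26 (n = 15, adjusted permutation p = 0.453) and rho 0.38 (0.310).

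miR-182 passed with both cluster partners in duodenum and liver, with miR-183 alone in jejunum, and with neither in rumen or mammary gland. With miR-183, r was 0.93 in liver (rho 0.91, adjusted permutation p = 0.00015 for each), 0.75 in duodenum (adjusted permutation p = 0.0035, rho 0.84, 0.0009) and 0.64 in jejunum (adjusted permutation p = 0.0304, rho 0.68, 0.0199). Without the 2 farthest samples r was 0.90, 0.75 and 0.55, and the jejunum relation no longer passed (adjusted permutation p = 0.0795). It also missed the threshold without the libraries that stood apart, with r = 0.62 (adjusted permutation p = 0.0557). In rumen and mammary gland r was -0.39 (n = 17) and -0.41 (n = 15), with adjusted permutation p = 0.406 and 0.585, and rho was -0.38 and -0.11 (0.266 and 0.805). With miR-96, r was 0.80 in duodenum (adjusted permutation p = 0.0031, rho 0.80, 0.0032) and 0.64 in liver (adjusted permutation p = 0.0227, rho 0.73, 0.0078). Without the 2 farthest samples these were 0.68 and 0.60, and the liver relation missed the threshold (adjusted permutation p = 0.0541). In jejunum r of miR-96 and miR-182 was 0.45 (adjusted permutation p = 0.176, rho 0.51, 0.0709). In rumen and mammary gland it was -0.37 and -0.38 (adjusted permutation p = 0.339 for each), with rho of -0.09 and -0.36 (0.805 and 0.266).

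miR-1271 and miR-96, the pair with the shared seed, had positive r in all 5 tissues and passed in duodenum and mammary gland. In duodenum r was 0.61 (adjusted permutation p = 0.0306) and rho 0.58 (0.0466), and r was 0.67 without the 2 farthest samples. In mammary gland r was 0.65 (adjusted permutation p = 0.0316) and rho 0.57 (0.0621). Without the 2 farthest samples it was 0.62, and without the libraries that stood apart it was 0.52, neither past the threshold (adjusted permutation p = 0.0741 and 0.142). In jejunum, over the 12 samples of rice straw and alfalfa hay, r was 0.44 (adjusted permutation p = 0.339), and in the 14 rumen samples without the 4 high libraries it was 0.28 (0.451), with rho of 0.17 and 0.16 (0.733 for each). Over all 18 rumen samples, of which those 4 form a group of their own, r was 0.76, against 0.28 without them. Those 4 libraries belong to the diet pattern known when the members were chosen, so no test is read from the 0.76. The 12 jejunum samples held none with corn stover, the separated diet, and over all 18 jejunum samples r was 0.40. How this relation bears on the diet separation that the pair shared in jejunum was not tested.

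miR-1271 passed with miR-183 in duodenum, with r = 0.69 (adjusted permutation p = 0.0196, rho 0.56, 0.0594) and 0.65 without the 2 farthest samples. It passed with miR-183 in liver, with r = 0.46 (adjusted permutation p = 0.0268, rho 0.64, 0.0199) and 0.62 without them. It passed with miR-182 in liver, with r = 0.50 (adjusted permutation p = 0.0306, rho 0.60, 0.0386) and 0.62 without them, then at adjusted permutation p = 0.0741. Both liver relations were lost with upper-quartile scaling. With miR-182 in mammary gland r was -0.70 (adjusted permutation p = 0.0196, rho -0.63, 0.0386), the only negative relation that passed. Without the libraries that stood apart it was -0.29 (0.674) and with upper-quartile scaling 0.11 (0.771), so this sign rested on those libraries and on the scaling.

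**Figure D5:**
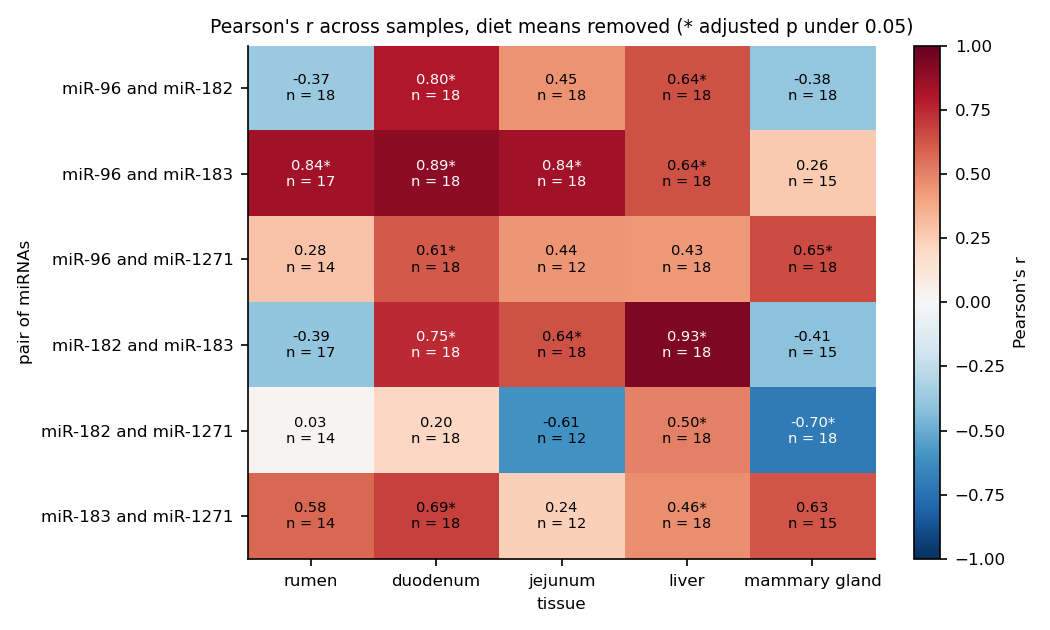
Pearson's r of each pair of members across the samples of a tissue after removal of the diet means, printed in each cell with the number of samples, with colour from -1 to 1 and an asterisk for an adjusted permutation p under 0.05. miR-96 and miR-183 have r of 0.64 to 0.89 in the 4 tissues where they pass, and the pairs with miR-182 are positive in duodenum and liver and negative in mammary gland.

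Among all miRNAs with a mean of at least 10 CPM, the partner with the highest r to miR-96 was miR-183 in duodenum, jejunum and liver, out of 233, 231 and 222 others. miR-182 and miR-183 were each other's nearest in liver, and miR-96 was the nearest of both in duodenum. miR-1271 had a member of the miR-99 family, which includes miR-99a-5p, miR-99b and miR-100, among its 2 nearest in all 5 tissues. From the side of miR-1271 the rank of miR-96 was 5 in rumen, 13 in duodenum and mammary gland, 25 in jejunum and 38 in liver. The rank of miR-183 was 8 in rumen and mammary gland, 7 in duodenum, 37 in jejunum and 29 in liver. All these ranks were taken over the 18 samples of a tissue, not within the larger group of samples. In rumen they include the high alfalfa hay libraries, without which r of miR-1271 with miR-96 was 0.28 (n = 14), against 0.76.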

How the data were processed

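Small RNA from 90 dairy cow samples was analysed (5 tissues, 3 diets, 6 replicates, groups from the labels). The authors extracted RNA with the mirVana kit, removed low-quality reads with CASAVA 1.8, and used sRNAbench to map reads over 15 nt long to bovine precursors of miRBase 22, allowing 2 mismatches and up to 10 mappings, so near-identical miRNAs could share reads. The deposited values were CPM. All of them were whole multiples of 1 step per sample within 0.1 read, and this step was used for depth only. The members and lists were chosen with earlier results of these data known.

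A miRNA was tested in a tissue where over 50% of its samples exceeded 1 CPM, log2(CPM + 1) was fitted with limma 3.58.1 (R 4.3.3, intensity trend, no further scaling), and p-values were adjusted by Benjamini-Hochberg over all miRNAs of the tissue with a threshold of 0.05. Changes on this scale are understated for low miRNAs. Correlations within a larger group of samples replaced the planned 18 samples where members were clustered. Named besides the members were, by rule, the 5 miRNAs nearest in pattern, the nearest within a tissue, and the marker lists. Wilson intervals were at 95%. A simulation gave 60 miRNAs per tissue a change of 1 on the log2 scale. The F test recovered 56 of them in duodenum, 51 in liver and 19 in mammary gland, with 1, 3 and 2 false calls. The simulated noise was normal and independent between miRNAs, with no libraries that stood apart. These numbers therefore check the code and do not give the error rate in these data. Python 3.11.15, numpy 2.4.6, pandas 2.3.3, scipy 1.17.1 and matplotlib 3.10.9 were used. Alternatives covered the pseudocount (0.1 and 5 CPM), the filter, upper-quartile and TMM scaling, the replicate block, a fit of all 90 samples, and leaving out libraries. No pair of libraries was identical. No batch or date is given in the sources used here.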

Additional observations from a re-analysis of the deposited data

Results flagged for a closer look

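In 10 of the 60 groups of 6 samples (4 members in 15 tissue and diet groups) the highest sample was far from the others by Dixon's 95% criterion. Chance meets it in about 1 in 20 groups that are independent and normally distributed. The criterion was applied to CPM, which need not be so distributed, and the members share libraries, so 10 of 60 cannot be set against that rate. Of the flagged samples, 4 belonged to libraries that stood apart. In mammary gland they were miR-96 in rice straw replicate 2 (122 CPM, others 21.6 to 58.7), miR-182 in rice straw replicate 5 (8777 CPM, others 2393 to 4398), and miR-183 and miR-1271 in alfalfa hay replicate 1 (2051 and 102 CPM, others 161 to 362 and 14.1 to 31.6). miR-1271 in mammary gland was also far above the others in corn stover replicate 5 (61.1 CPM, others 11.8 to 21.1). In liver, alfalfa hay replicate 2 was highest for both miR-182 (367 CPM, others 82.6 to 155) and miR-183 (34.0 CPM, others 4.60 to 10.5), and this library also had 1525 CPM of miR-205, whose part was not tested. In rumen they were miR-183 in alfalfa hay replicate 6 (1683 CPM, others 280 to 745) and miR-1271 in corn stover replicate 6 (26.9 CPM, others 19.1 to 21.8). In duodenum it was miR-1271 in corn stover replicate 2 (75.1 CPM, others 34.9 to 49.8).

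The rice straw and corn stover levels of miR-96 stood in opposite order in 2 tissues. The rice straw mean was 2.98-fold the corn stover mean in jejunum (11.9 and 3.99 CPM), and in mammary gland the means were 53.8 and 143 CPM, with every sample of a diet on its own side of the other diet's mean in both tissues. The difference between the tissues was not tested.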

How the results depend on the processing

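In duodenum and liver no alternative brought a member past the threshold, and leaving out single libraries gave 0 to 1 called miRNAs in duodenum and 0 to 3 in liver. The difference of miR-1271 in duodenum (0.11) became -0.012 without corn stover replicate 2, and its range over single libraries left out was -0.012 to 0.26. In mammary gland 12 miRNAs were called as reported, against 0 with a pseudocount of 0.1 CPM, 19 with 5 CPM, 55 with the replicate block, 38 without the libraries under 2000000 mapped reads, 61 without those that stood apart, 159 with 1 fit of all 90 samples (which treats samples of the same cows as independent), and 0 to 84 with single libraries left out. The number of members called there was 1 with a pseudocount of 5 CPM, with the replicate block and with the fit of all 90 samples (miR-96 each time, at 1.497, 1.59 and 1.59, adjusted p = 0.0461, 0.0362 and 2.42e-05), 2 without the libraries that stood apart (miR-1271 at -2.19 and miR-183 at -1.34), and 0 to 1 with single libraries left out (miR-96 between 1.38 and 1.87). Otherwise the diet differences kept their direction and side of the threshold. The replicate block changed the call of no other member. The labels do not say whether equal numbers pair the samples. Of 18 same-numbered pairs, 10, 5, 2, 5 and 7 in rumen, duodenum, jejunum, liver and mammary gland correlated over 0.1. Pairs with unlike numbers were not compared, so these counts cannot decide it. The cause of these changes was not tested. The count test on recovered reads was not run.

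Of the mean levels, miR-1271 in liver moved by more than its SD, to 5.75 CPM, with upper-quartile scaling over all samples. The number of relations past the threshold was 10 to 16 of 30 over the alternatives. Where the sign was kept, a call was lost 20 times and gained 3 times. The sign changed another 12 times, and miR-182 with miR-1271 in mammary gland then also lost its call, with upper-quartile scaling. Those that changed sign were, without the 2 farthest samples, miR-96 with miR-182 (0.33), miR-182 with miR-183 (0.018) and miR-182 with miR-1271 (-0.37) in rumen and miR-183 with miR-1271 in jejunum (-0.24). Without the libraries that stood apart they were miR-96 with miR-182 in rumen (0.10), and in mammary gland miR-96 with miR-182 (0.12), miR-96 with miR-183 (-0.29), miR-182 with miR-183 (0.36) and miR-183 with miR-1271 (-0.012). With upper-quartile scaling they were miR-96 with miR-182 (0.28) and miR-182 with miR-1271 (0.11) in mammary gland, and over all 18 samples miR-182 with miR-1271 in rumen (-0.51). Leaving out libraries that stood apart or the liver library with the most miR-205, and taking all 18 samples or the larger group, were alternatives chosen after the data were seen. Depth limited miR-96 in liver most, where 3 reads were worth up to 1.496 CPM.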
